A study of Homo sapiens and Mus musculus with 18 samples.

Results

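The genes described here are 8 cadherins, CDH1, CDH2, CDH3, CDH4, CDH6, CDH11, CDH13 and CDH23, followed across all human RNA groups of the series. They were chosen by name, with earlier results of these data known, and all 8 were found among the 66733 gene IDs listed in the human data. All 8 also passed the filter on low counts in both sets of human counts. The study made mesothelium, the sheet of cells that lines the body cavities and their organs, from WA09, an established human embryonic stem cell line used at passages 47 to 60. The title of the series names an epithelial and a mesenchymal form of these cells. In every human group the stem cells were first turned into splanchnic mesoderm, the embryonic layer that gives rise to mesothelium, over 4 days with WNT3A at 25 ng/ml and BMP4 at 100 ng/ml.

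MesoT were then given WNT3A at 25 ng/ml, BMP4 at 50 ng/ml and retinoic acid at 4 µM, and were taken at day 18 or at day 22, with 2 libraries at each time. MesoT FCS were MesoT kept on plastic to passage 4 in medium with 10% serum and FGF2 at 8 ng/ml (2 libraries). Mesothelium-like cells, MLC, were made by replating splanchnic mesoderm in SB431542, an inhibitor of TGF-beta type I receptors, at 20 µM with retinoic acid at 4 µM, for 18 days in all (2 libraries). MesoT-derived MLC were MesoT replated into the MLC medium (2 libraries). The smooth muscle group was splanchnic mesoderm left in culture for 16 to 18 days and held 1 library. All groups come from 1 stem cell line. Nothing in the labels says that the replicates are separate cultures, so p-values measure only the spread between these libraries.

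Classical cadherins are transmembrane proteins that join neighbouring cells, each binding a cadherin of the cell opposite in the presence of calcium. Their tails bind catenins, which tie the junction to actin. E-cadherin (CDH1) is typical of epithelia and N-cadherin (CDH2) of mesenchymal, neural and muscle cells, and mesothelium is known for carrying both. P-cadherin (CDH3) is an epithelial cadherin of basal layers, R-cadherin (CDH4) and K-cadherin (CDH6) are known from retina and kidney, and OB-cadherin (CDH11) is a cadherin of mesenchyme. T-cadherin (CDH13) has no transmembrane segment or catenin-binding tail and is held to the membrane by a lipid anchor, while CDH23 is a very long cadherin known from the tip links of hair cells in the inner ear.

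The counts came in 2 sets, which were normalised and tested apart. One set holds 7 files of 1 library each (MLC, MesoT day 18, MesoT FCS and smooth muscle), with totals between 21148477 and 70679258 counts. The other is a table of 6 columns (MesoT day 18, MesoT day 22 and MesoT-derived MLC), with totals between 24137663 and 31435480. The same 2 labelled MesoT day 18 samples stand in both. Among the 7 files, the 2 MLC libraries had 70679258 and 65709545 counts, and the others between 21148477 and 28982850. Mitochondrial genes took 6.84% and 7.76% of counts in MLC, and between 2.48% and 3.42% in the other files. These differences go with the MLC group, and their part in its comparisons was not tested. Levels are CPM, each count scaled to a library total of 1e6. No transcript lengths were at hand, so a comparison between genes below is a comparison of reads and favours long transcripts, CDH23 above all. A comparison of 1 gene between groups does not depend on its length. Fold changes are from edgeR's quasi-likelihood test, scaled by TMM. A gene is called higher or lower where the Benjamini-Hochberg adjusted p over all genes tested was under 0.05.

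Of the mesothelial markers, WT1 stood at 233 and 158 CPM in MLC, at 27.7 and 60.0 CPM in MesoT day 18 and at 4.56 and 2.88 CPM in MesoT FCS. UPK3B, a mesothelial membrane protein, was at 0.584 and 0.0473 CPM in MesoT FCS. KRT19, of the same 11 markers, went the other way, at 866 and 552 CPM in MesoT FCS. It was at 213 and 198 CPM in MesoT day 18 and at 416 and 440 CPM in MLC. Summed over the 11, the markers overlapped between these groups. The sums were 5137 and 2638 CPM in MesoT FCS, 5069 and 3767 CPM in MesoT day 18 and 4249 and 3269 CPM in MLC. The library labelled smooth muscle had WT1 at 0.0369 CPM, but KRT19 at 1146 CPM and 10 of the 11 mesothelial markers at or above 1 CPM. Its 8 smooth muscle markers summed to 1029.6 CPM, within the range of 362 to 1773 CPM in MesoT day 18. This library also held the 8 basal epidermis markers at a summed 2622 CPM, led by KRT5 at 788 CPM, against 1.32 to 56.2 CPM in the other human libraries. Hepatocyte markers summed to 151 and 65.8 CPM in MLC and to 94.4 and 213 CPM in MesoT-derived MLC, and to at most 7.59 CPM elsewhere. In bulk RNA such as this, fewer cells of a type and less RNA per cell cannot be told apart.

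The start region of CDH23 is shown because CDH23 was the cadherin with the largest change between MLC and MesoT day 18. The RefSeq table of promoter windows (GRCh38.p14) held windows for 3 of the 8, CDH2, CDH4 and CDH23. The window below is the 250 bases before the start of CDH23, 5′ to 3′ on the gene's plus strand, at chr10:71396670-71396919, with CG dinucleotides in capitals.
CDH23: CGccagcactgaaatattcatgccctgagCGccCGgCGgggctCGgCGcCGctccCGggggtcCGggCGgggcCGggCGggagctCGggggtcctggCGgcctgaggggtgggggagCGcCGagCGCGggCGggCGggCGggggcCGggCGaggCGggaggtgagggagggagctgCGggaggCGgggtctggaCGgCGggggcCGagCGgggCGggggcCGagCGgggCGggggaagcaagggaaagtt
This window held 34 CG dinucleotides at 80.8% G and C, and 6.84% of the 35116 windows in the table had as many. CAGGTG, the E-box letters bound by the SNAI and ZEB families of repressors, was searched on both strands. It was not in this window but was in 1 of the other 2 windows of CDH23, at chr10:71811633-71811882, and in 2 of the 7 windows of the 3 cadherins. Of all windows, 17.5% held it. The letters describe the window and were not tested against the RNA.

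Each group was first described by which cadherin took the most reads. In MesoT day 18 this was CDH11, with 52.0% and 41.6% of the reads of the 8 cadherins in the 2 libraries of the 1-library files. In MesoT FCS it was CDH2, with 47.6% and 54.9%, and CDH11 came next with 35.7% and 32.2%. In MLC the first place was not the same in both libraries. CDH3 led replicate 1 with 36.7% against 31.4% for CDH11, and CDH11 led replicate 2 with 42.2% against 31.9% for CDH3. CDH1 came next in both MLC libraries, at 17.9% in each. The smooth muscle library was led by CDH11 with 30.8% (95% exact binomial interval 30.3 to 31.3, counting error only), followed by CDH2 with 26.1%, CDH1 with 22.6% and CDH3 with 15.9%.

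In the table, first place in MesoT day 22 was also split between CDH3 and CDH11, but the other way round by replicate number than in MLC. CDH11 led replicate 1 with 44.7% and CDH3 led replicate 2 with 35.7%, where CDH11 had 25.0%. In MesoT-derived MLC, CDH11 took 33.6% and 34.2% and CDH3 took 33.4% and 24.4%. No group was led by CDH1, CDH4, CDH6, CDH13 or CDH23 in either library. Summed over the 8 genes, cadherin reads came to 1138 and 1221 CPM in MLC and to 1107 and 932 CPM in MesoT FCS. The sums were near each other while CDH1, CDH3 and CDH23 made up much of one and almost none of the other.

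**Figure D1:**
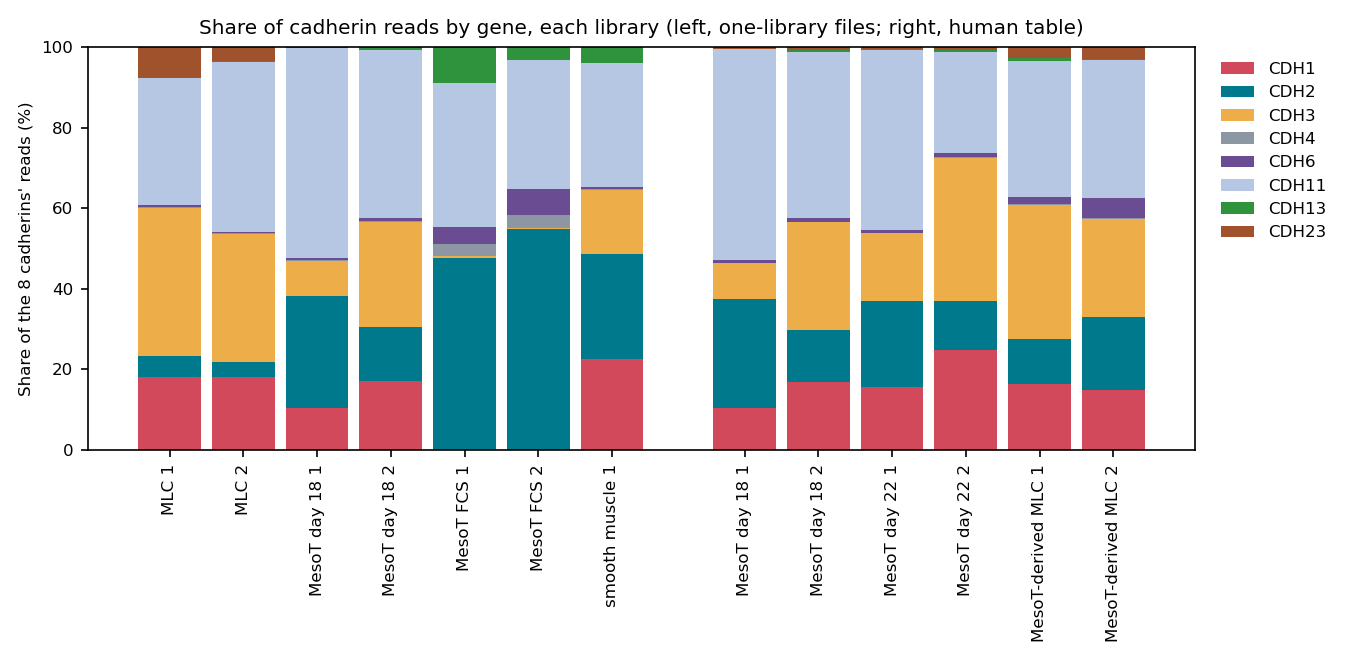
Stacked bars give each cadherin's share (%) of the reads of the 8 cadherins in each library, with the 1-library files on the left and the table on the right; all bars sum to 100%. MesoT FCS bars hold almost no CDH1 or CDH3 and are led by CDH2 (47.6% and 54.9%), while MLC bars are mostly CDH3, CDH11 and CDH1.

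**Figure D2:**
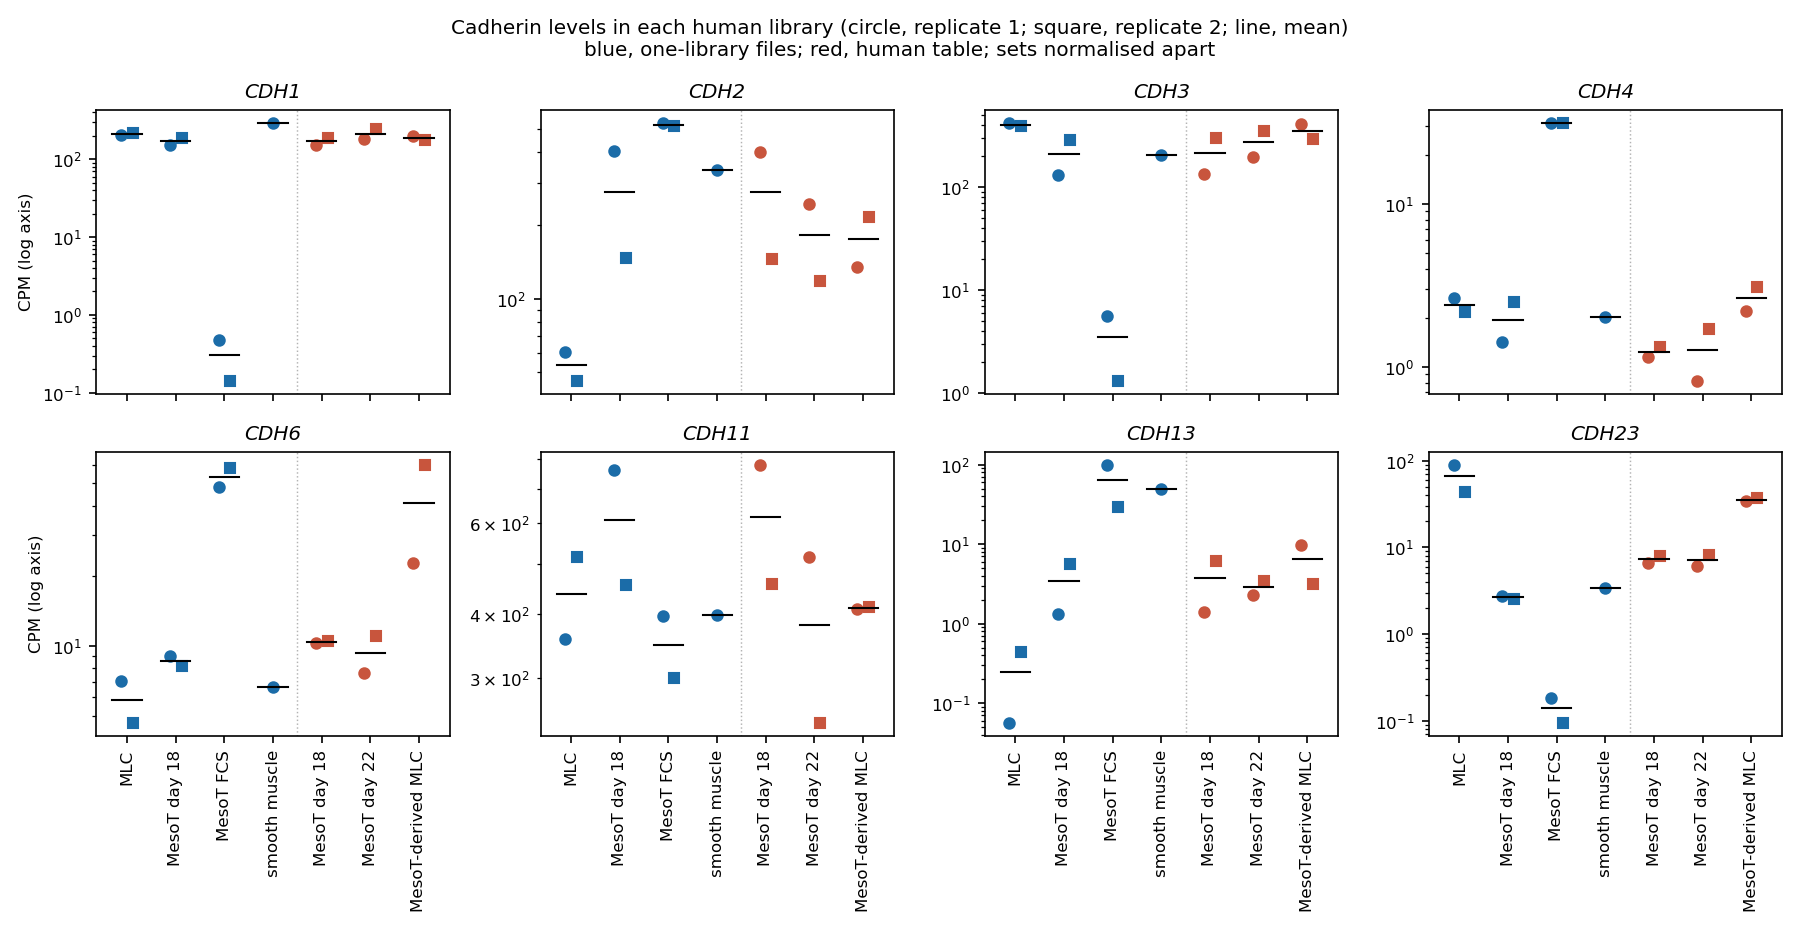
Each panel gives 1 cadherin's CPM on a log axis in every human library, with circles for replicate 1, squares for replicate 2 and a line for the mean of the group; blue is the 1-library set and red the table. CDH1, CDH3 and CDH23 are lowest in MesoT FCS, and CDH2, CDH4 and CDH6 are highest there among the blue points.

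The epithelial cadherins CDH1 (ENSG00000039068) and CDH3 (ENSG00000062038) were nearly absent from MesoT FCS. CDH1 was at 0.475 and 0.142 CPM there, which are 13 and 3 counts, against 152 and 187 CPM in MesoT day 18, 204 and 219 CPM in MLC and 292 CPM in smooth muscle. The MesoT FCS libraries lie far below all others and the remaining groups lie close together. CDH1 was 364-fold lower in MesoT FCS than in MesoT day 18 (log2 fold change -8.51 ± 0.45 SE, adjusted p = 0.00163), and -9.71 without MesoT FCS replicate 1. CDH3 was also lowest in MesoT FCS, but its highest group was MLC and not smooth muscle. It was at 5.66 and 1.32 CPM in MesoT FCS, at 130.3 and 286 CPM in MesoT day 18, at 418 and 389.7 CPM in MLC and at 205 CPM in smooth muscle. CDH3 was 39.9-fold lower in MesoT FCS than in MesoT day 18 (-5.32 ± 0.74, adjusted p = 0.00804), with -6.77 and -4.63 when MesoT FCS replicate 1 or replicate 2 was left out.

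Between MLC and MesoT day 18, neither passed the test. The log2 fold change was 0.47 ± 0.30 for CDH1 (adjusted p = 0.303) and 1.14 ± 0.61 for CDH3 (adjusted p = 0.222), although both MLC libraries lay above both MesoT day 18 libraries for each gene. CDH1 and CDH3 are neighbouring genes in RefSeq, with no coding gene between them. An antisense gene, CDH3-AS1, overlaps CDH3 and reached at most 13.3 CPM. The strand setting of the counting is not given in the sources used here.

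N-cadherin, CDH2 (ENSG00000170558), was low in MLC and high in MesoT FCS. It was at 60.2 and 45.9 CPM in MLC, 405 and 146 CPM in MesoT day 18, 527 and 512 CPM in MesoT FCS and 337 CPM in smooth muscle. The MLC libraries lie below all others, and the 2 MesoT day 18 libraries differ by 2.77-fold in the table, which counted the same samples. CDH2 was 4.95-fold lower in MLC than in MesoT day 18 (-2.31 ± 0.55, adjusted p = 0.0315). The size of that difference rested on MesoT day 18 replicate 1, and was -1.09 without it and -2.94 without replicate 2. The call was lost when either MLC library was left out (adjusted p = 0.150 without replicate 1 and 0.195 without replicate 2) and when either MesoT FCS library was (0.0553 and 0.0552). In MesoT FCS against MesoT day 18 the difference was 1.35 ± 0.54 and did not pass the test (adjusted p = 0.110). It passed with DESeq2 (1.32, adjusted p = 0.0485) and without MesoT day 18 replicate 1 (2.43, adjusted p = 0.00477).

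OB-cadherin, CDH11 (ENSG00000140937), was abundant in every group and was called in none of the comparisons. It was at 357 and 516 CPM in MLC, 762 and 455 CPM in MesoT day 18, 396 and 300.3 CPM in MesoT FCS and 397 CPM in smooth muscle. The ranges of MLC and MesoT day 18 overlap. Its log2 fold change was -0.38 ± 0.39 in MLC and -0.34 ± 0.39 in MesoT FCS, each against MesoT day 18 (adjusted p = 0.516 and 0.533). Between MLC and MesoT FCS it was -0.04 ± 0.39 (adjusted p = 0.946), and the sign of that small value turned under several settings, to 0.33 with library totals in place of TMM.

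CDH4, CDH6 and CDH13 were the cadherins called higher in MesoT FCS than in MesoT day 18. CDH4 (ENSG00000179242) was at 31.4 and 31.3 CPM in MesoT FCS against 1.41 and 2.48 CPM in MesoT day 18, 2.63 and 2.16 CPM in MLC and 2.03 CPM in smooth muscle. Its 2 MesoT FCS libraries nearly coincide and lie far above every other library of the set. CDH4 was 23.3-fold higher than in MesoT day 18 (4.54 ± 0.30, adjusted p = 0.00226). CDH6 (ENSG00000113361) was at 47.9 and 58.2 CPM in MesoT FCS against 9.04 and 8.16 CPM in MesoT day 18, 7.06 and 4.67 CPM in MLC and 6.67 CPM in smooth muscle. Here too the MesoT FCS libraries stand apart from the rest, and CDH6 was 8.64-fold higher than in MesoT day 18 (3.11 ± 0.29, adjusted p = 0.00389).

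CDH13 (ENSG00000140945) varied widely between replicates. It was at 98.8 and 29.4 CPM in MesoT FCS, 48.8 CPM in smooth muscle, 1.31 and 5.63 CPM in MesoT day 18 and 0.0566 and 0.441 CPM in MLC, the last being 4 and 29 counts. Replicates differed 3.36-fold in MesoT FCS and 7.80-fold in MLC, but the order of MesoT FCS, MesoT day 18 and MLC held in every library. CDH13 was higher in MesoT FCS than in MesoT day 18 (4.81 ± 1.04, adjusted p = 0.0228), a call lost without MesoT FCS replicate 1 (3.64, adjusted p = 0.0795). Without any 1 library of these 2 groups the value lay between 3.64 and 5.98. In MLC against MesoT day 18 it gave -3.58 ± 1.10 and did not pass (adjusted p = 0.0631), but it passed in 4 of 14 alternatives, DESeq2 among them (-3.56, adjusted p = 0.00234).

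CDH23 (ENSG00000107736) was the cadherin called higher in MLC than in MesoT day 18. It was at 88.9 and 43.6 CPM in MLC against 2.76 and 2.53 CPM in MesoT day 18, 3.43 CPM in smooth muscle, and 0.183 and 0.0946 CPM in MesoT FCS, where it had 5 and 2 counts. Both MLC libraries lie above every other library of the set. CDH23 was 27.3-fold higher in MLC than in MesoT day 18 (4.77 ± 0.45, adjusted p = 0.00142) and 12.9-fold lower in MesoT FCS (-3.69 ± 0.57, adjusted p = 0.0101). The first was 4.17 without MLC replicate 1. The second call was lost without MesoT FCS replicate 2 (-3.32, adjusted p = 0.0518) and with limma voom (-3.59, adjusted p = 0.0801).

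The level of CDH23 depends on the counting. The same MesoT day 18 samples had 80 and 57 counts in the 1-library files and 199 and 194 in the table, a log2 difference in CPM of 1.25 and 1.67. CDH4 differed by -0.30 and -0.91, and the other 6 cadherins by at most 0.36 in size. With the day 18 counts of the table, the difference of MLC from MesoT day 18 was 3.44 and that of MesoT FCS -5.04. VSIR, an immune receptor gene, lies within the span of CDH23 in RefSeq. VSIR stood at 35.4 and 18.5 CPM in MLC and at 18.8 and 7.10 CPM in MesoT day 18 (1.13 ± 0.59, adjusted p = 0.211). How far reads of VSIR were counted to CDH23 was not tested.

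In MLC against MesoT day 18, 1 of the 8 cadherins was higher and 1 lower, where 24.6% of the 23049 genes tested were called (7.83% higher and 16.8% lower). In MesoT FCS against MesoT day 18, 3 were higher (CDH4, CDH6 and CDH13) and 3 lower (CDH1, CDH3 and CDH23), where 27.3% of genes were called (13% higher and 14.4% lower). MLC set directly against MesoT FCS had 7 of 8 cadherins called, where 48.9% of genes were (22.6% higher and 26.3% lower). CDH1 (8.98 ± 0.46), CDH3 (6.46 ± 0.77) and CDH23 (8.46 ± 0.59) were higher in MLC, with adjusted p of 1.97e-04, 0.00177 and 3.76e-04. CDH2 (-3.65 ± 0.59), CDH4 (-4.07 ± 0.29), CDH6 (-3.54 ± 0.30) and CDH13 (-8.38 ± 1.25) were lower, with adjusted p between 4.17e-04 and 0.00454. The 7 calls were made in all 13 alternative fits of that comparison. The least certain in size were CDH13, between -10.42 and -7.22, and CDH3, between 5.77 and 7.91, as single MLC or MesoT FCS libraries were left out. The comparisons share their MesoT day 18 and other libraries, so their values stand side by side and are not independent. Because the 8 cadherins were chosen with earlier results of these data known, the shares over all genes are no test of their counts.

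**Figure D3:**
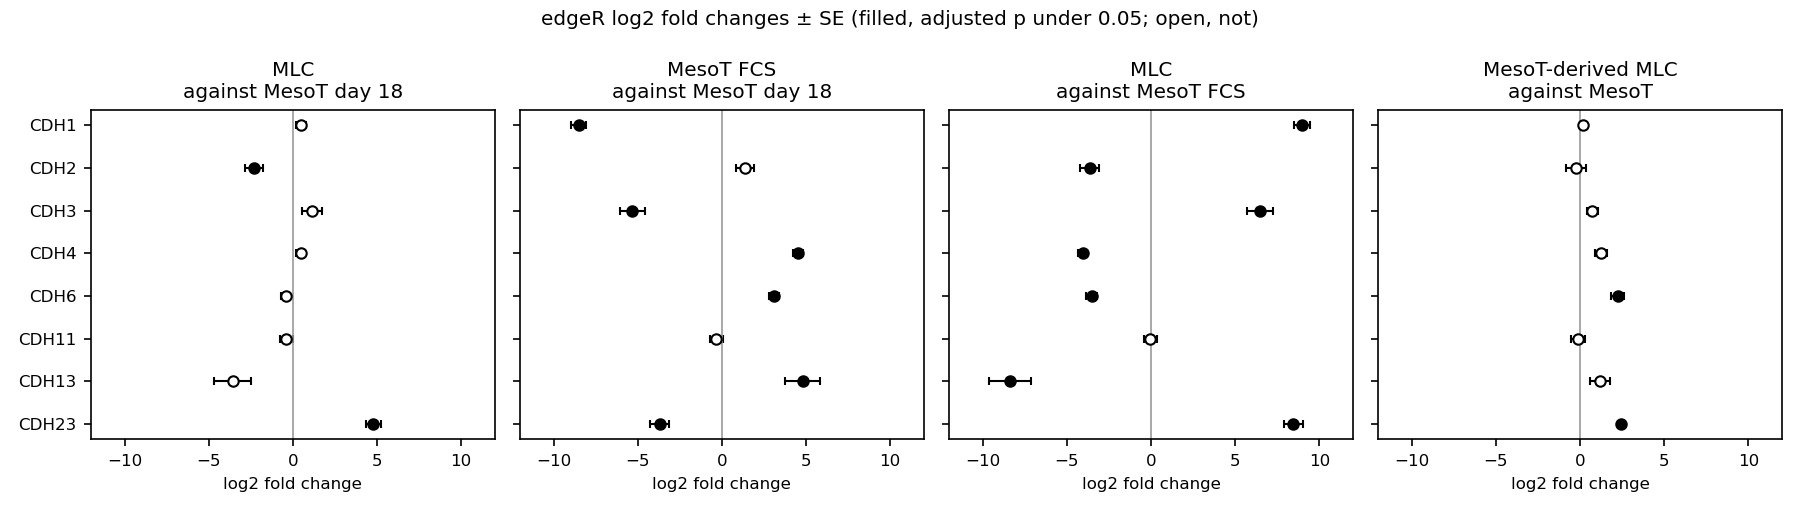
Points are edgeR log2 fold changes of the 8 cadherins with standard errors in 4 comparisons, filled where the adjusted p was under 0.05 and open where it was not. The third panel, MLC against MesoT FCS, has 7 filled points, while CDH11 sits at -0.04 there.

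The table asked whether replating MesoT into MLC medium moved the cadherins. In MesoT-derived MLC against MesoT of both days (4 libraries), 2 of the 8 were higher and none lower, where 9.94% of 22316 genes were called (6.63% higher and 3.32% lower). CDH23 was at 34.0 and 37.0 CPM in MesoT-derived MLC, against 6.55 and 8.04 CPM at day 18 and 6.08 and 8.23 CPM at day 22. All 4 MesoT libraries lie below both MesoT-derived MLC libraries, and the difference was 2.46 ± 0.17 (adjusted p = 0.00896). VSIR rose in the same comparison, from between 7.79 and 19.8 CPM in MesoT to 117 and 290.0 CPM (4.22 ± 0.53, adjusted p = 0.0170). CDH6 was at 22.7 and 59.8 CPM, against 10.2 and 10.5 CPM at day 18 and 7.65 and 11.0 CPM at day 22 (2.22 ± 0.38, adjusted p = 0.0275).

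Both calls rest on few libraries. CDH23 missed the threshold without MesoT day 22 replicate 1 (2.39, adjusted p = 0.0562) and without MesoT-derived MLC replicate 2 (2.40, adjusted p = 0.0807). CDH6 missed it in 6 of 13 alternative fits, with adjusted p between 0.0548 and 0.159. It was lowest, at 1.37, without MesoT-derived MLC replicate 2.

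N-cadherin did not repeat here the low level of MLC. CDH2 was at 135 and 217 CPM in MesoT-derived MLC, within the 118 to 403 CPM of the 4 MesoT libraries (-0.25 ± 0.58, adjusted p = 0.799). CDH1, at 199 and 179 CPM, gave 0.16 ± 0.17 (adjusted p = 0.550), and CDH3, at 406 and 294 CPM, gave 0.72 ± 0.32 (adjusted p = 0.189). CDH4, at 2.20 and 3.09 CPM, lay above all 4 MesoT libraries but did not pass (1.24 ± 0.35, adjusted p = 0.0728). CDH13 was at 9.77 and 3.12 CPM (1.19 ± 0.61, adjusted p = 0.247) and CDH11 at 409 and 412 CPM (-0.13 ± 0.44, adjusted p = 0.870). Whether the 2 kinds of MLC differ was not tested, since they stand in sets counted apart.

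Between MesoT day 22 and day 18, no cadherin and no gene at all was called by edgeR, and none by DESeq2 or limma voom, while 171 genes had an unadjusted p under 0.05 in edgeR. The share of genes called was 0.00%. Deviations of same-numbered replicates correlated at 0.557 between the 2 days, which the main fit left out of account. A fit with a replicate block also called 0 genes. The 171 genes are fewer than 0.05 of the 22316 tested. With 2 libraries at each day, the lack of calls does not show that the days are alike. The spread between replicates was wide for the abundant cadherins at both days, and in the same direction. CDH2 was 403 CPM in replicate 1 and 145 CPM in replicate 2 at day 18, and 246 and 118 CPM at day 22. CDH11 was 779.8 and 458 CPM at day 18 and 516 and 245 CPM at day 22. CDH3 went the other way, with 135 and 298 CPM at day 18 and 195 and 349.6 CPM at day 22, as did CDH1 with 154 and 186 CPM and with 179.9 and 242 CPM.

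Some lists of markers of other cells moved with that split of the MesoT replicates. The 8 smooth muscle markers summed to 1348 CPM in replicate 1 and 287 CPM in replicate 2 at day 18, and to 1549 and 303 CPM at day 22, with all 8 at or above 1 CPM. The 7 pluripotency markers summed to 67.4 and 170.1 CPM at day 18 and to 67.3 and 156 CPM at day 22. The 8 endothelium markers turned, with sums of 332 and 178 CPM at day 18 and of 134 and 153 CPM at day 22. The part of these markers in the cadherin levels was not tested.

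The single smooth muscle library held CDH1, CDH2, CDH3 and CDH11 together at 205 to 397 CPM. Tests of this 1 library took their spread from the groups of the set that hold 2 libraries. With only smooth muscle and MesoT day 18 fitted, no gene was called between them, so the share called below depends on the other groups. Against MesoT day 18, none of the 8 cadherins was called by edgeR, where 8.67% of genes were (5.08% higher and 3.58% lower) and 7002 genes had an unadjusted p under 0.05. CDH1 gave 1.17 ± 0.36 (adjusted p = 0.0928) and CDH13 gave 4.28 ± 1.09 (adjusted p = 0.0638); DESeq2 called both and limma voom called CDH1. Against MLC, where 34.3% of genes were called (21.3% higher and 13% lower), CDH2 (2.91 ± 0.63) and CDH13 (7.85 ± 1.27) were higher and CDH23 (-4.03 ± 0.59) was lower, with adjusted p of 0.0180, 0.00750 and 0.00542. The CDH2 call was lost without MLC replicate 1 (3.11, adjusted p = 0.0905) or replicate 2 (2.72, adjusted p = 0.111).

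Against MesoT FCS, where 17.9% of genes were called (10.3% higher and 7.57% lower), CDH1 (9.68 ± 0.48), CDH3 (5.72 ± 0.79) and CDH23 (4.43 ± 0.61) were higher in smooth muscle, and CDH4 (-4.07 ± 0.40) and CDH6 (-3.11 ± 0.39) were lower, with adjusted p between 0.00124 and 0.0108. All 5 were lost when only these 2 groups were fitted (adjusted p between 0.0559 and 0.0626), and CDH23 also with limma voom (adjusted p = 0.0719). Without MesoT FCS replicate 1, CDH1 gave 10.88 and CDH3 gave 7.17. Against MLC, CDH13 lay between 7.01 and 9.89 as either MLC library was left out. These tests assume that the lone library varies like the other groups. The basal epidermis markers at 2622 CPM and the 4 desmosomal cadherins given below stood high in the same library, and their part in its CDH1 and CDH3 levels was not tested.

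The ratio of CDH1 to CDH2 reads within a library compares the 2 cadherins free of library size. On the log2 scale it was 1.76 and 2.25 in MLC, -1.41 and 0.35 in MesoT day 18, -10.12 and -11.82 in MesoT FCS and -0.21 in smooth muscle. MLC and MesoT FCS lie at opposite ends with MesoT day 18 between them, and the 2 MesoT day 18 libraries fall on either side of equal reads. The means were 2.01 ± 0.35 (SD, n = 2) in MLC and -0.53 ± 1.25 (SD, n = 2) in MesoT day 18. With 2 libraries against 2, an exact two-sided permutation test cannot give a p below 0.333, so no test was made. In the table the ratio was -0.45 and 1.04 at day 22 and 0.57 and -0.27 in MesoT-derived MLC, which overlap.

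The ratio of CDH3 to CDH11 reads was 0.23 and -0.40 in MLC, -2.55 and -0.67 in MesoT day 18, -6.13 and -7.83 in MesoT FCS and -0.95 in smooth muscle. MLC and MesoT FCS again took the ends of the order without overlap. In the table it was -2.53 and -0.62 at day 18, -1.40 and 0.51 at day 22 and -0.01 and -0.48 in MesoT-derived MLC. There MesoT day 22 overlapped both other groups, and both MesoT-derived MLC libraries lay above both MesoT day 18 libraries.

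**Figure D4:**
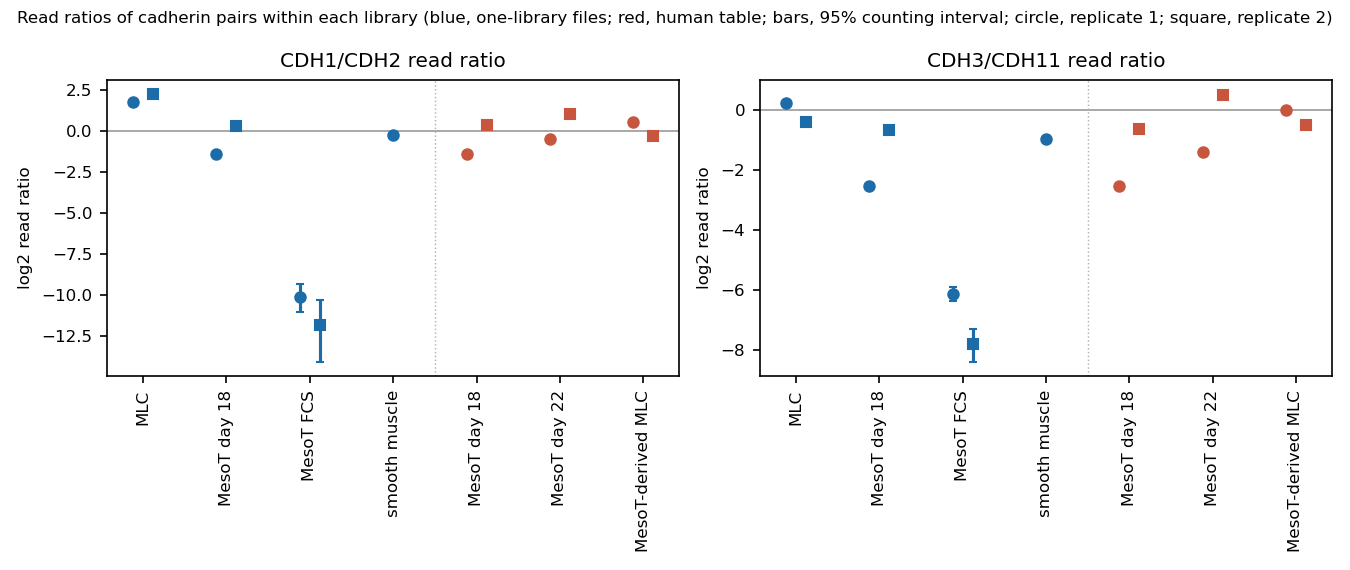
Points are the log2 ratio of CDH1 to CDH2 reads (left) and of CDH3 to CDH11 reads (right) in each library, with 95% counting intervals; blue is the 1-library set and red the table. MesoT FCS lies at -10.12 and -11.82 for CDH1 to CDH2, and MLC at 1.76 and 2.25.

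The other genes of the cadherin system were taken as lists. Of the list genes named by rule, 14 of 21 in MesoT FCS and 3 of 12 in MLC kept their call in every alternative. None of 13 in MesoT-derived MLC and none of 15 in smooth muscle did. Of 9 epithelial transcription and splicing factors, 8 were lower and none higher in MesoT FCS than in MesoT day 18. Of all genes, 14.4% were called lower in MesoT FCS and 7.83% higher in MLC, each against MesoT day 18. The median of the 9 in MesoT FCS was -8.36, or -5.67 with the 3 genes at 0 counts set to their bound, against -0.16 over all genes. GRHL2, a factor that acts on the CDH1 gene, had 36.7 and 55.9 CPM in MesoT day 18 and no counts in MesoT FCS, at least 729.9-fold lower by 3 counts over the group. ESRP1, a splicing factor of epithelia, was at 32.8 and 44.8 CPM against 0 and 0.0946 CPM. Its relative ESRP2 gave -5.67 ± 0.38 (adjusted p = 0.00226) and GRHL1 gave -5.31 ± 0.38 (adjusted p = 0.00229). In MLC, 2 of the 9 were higher and none lower (GRHL1 1.18 ± 0.26, GRHL2 0.76 ± 0.19, adjusted p = 0.0256 and 0.0437), and both calls were lost when either MLC library was left out.

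The repressors of CDH1 had a median of -0.02 both in MesoT FCS and in MLC against MesoT day 18, and of -0.91 in MesoT-derived MLC, where all genes had -0.05. Over all genes, 27.3% were called in MesoT FCS and 24.6% in MLC, each against MesoT day 18. Of 8, 1 was higher (TCF3, 0.68 ± 0.18, adjusted p = 0.0415) and 1 lower (TCF4, -1.75 ± 0.35, adjusted p = 0.0185) in MesoT FCS, where CDH1 was lowest. SNAI1 was at 11.6 and 17.3 CPM in MesoT FCS and at 7.87 and 37.2 CPM in MesoT day 18, SNAI2 at 46.7 and 46.2 against 58.4 and 71.4 CPM, and ZEB1 at 45.3 and 49.6 against 44.6 and 67.1 CPM. None of these 3 passed the test there (adjusted p between 0.466 and 0.948). In MLC, ZEB1 was the only one called, at 13.9 and 23.8 CPM (-1.41 ± 0.29, adjusted p = 0.0189), a call lost without MLC replicate 1. In MesoT-derived MLC, ZEB2 (-2.02 ± 0.44) and TCF4 (-1.13 ± 0.24) were lower (adjusted p = 0.0438 and 0.0413) and none was higher, where 9.94% of all genes were called. In MLC against MesoT FCS, where CDH1 gave 8.98, 2 of the 8 were higher and 3 lower, and 48.9% of all genes were called. ZEB1, TWIST2, TCF3 and TWIST1 were the called repressors of smallest p in that comparison. ZEB1 was lower in MLC, at 13.9 and 23.8 CPM against 45.3 and 49.6 CPM in MesoT FCS.

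Of 16 catenins and other partners of the cadherin tail, 3 were higher and 4 lower in MesoT FCS, 2 were higher and none lower in MLC, and 3 were higher and none lower in MesoT-derived MLC. Over all genes, 27.3%, 24.6% and 9.94% were called in these comparisons. CTNNAL1, an alpha-catenin relative, was higher in all 3, by 1.57 ± 0.18, 1.23 ± 0.18 and 1.26 ± 0.19 (adjusted p = 0.00564, 0.00646 and 0.0218). AFDN, which links nectins to actin, was lower in MesoT FCS (-1.44 ± 0.27, adjusted p = 0.0165), as was CTNNA3 (-3.74 ± 0.73, adjusted p = 0.0175). The core catenins CTNNB1, CTNNA1 and CTNND1 were not called in MLC, MesoT FCS or MesoT-derived MLC. CTNNB1, beta-catenin, was at 383 and 386 CPM in MesoT FCS against 677 and 888 CPM in MesoT day 18 (-0.51 ± 0.18, adjusted p = 0.0829).

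Desmosomal cadherins, which build the desmosomes of epithelia, numbered 7. Of all genes, 14.4% were called lower in MesoT FCS, 7.83% higher in MLC and 5.08% higher in smooth muscle, each against MesoT day 18. In MesoT FCS 3 were lower and none higher, among them DSC2 at 14.4 and 5.30 CPM against 81.3 and 119 CPM (-2.81 ± 0.50, adjusted p = 0.0138). DSG2 was the 1 called in MLC, at 438 and 515 CPM against 161 and 166 CPM (1.68 ± 0.20, adjusted p = 0.00288). In the smooth muscle library 4 of the 7 were higher than in MesoT day 18. DSG1 was at 57.9 CPM there and DSG3 at 62.2 CPM, against at most 0.222 CPM for either in MesoT day 18. The table counted DSG3 at 6.75 and 11.1 CPM in those same day 18 samples. DSC1 was at 43.5 CPM and DSG2 at 419.6 CPM in smooth muscle.

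**Figure D5:**
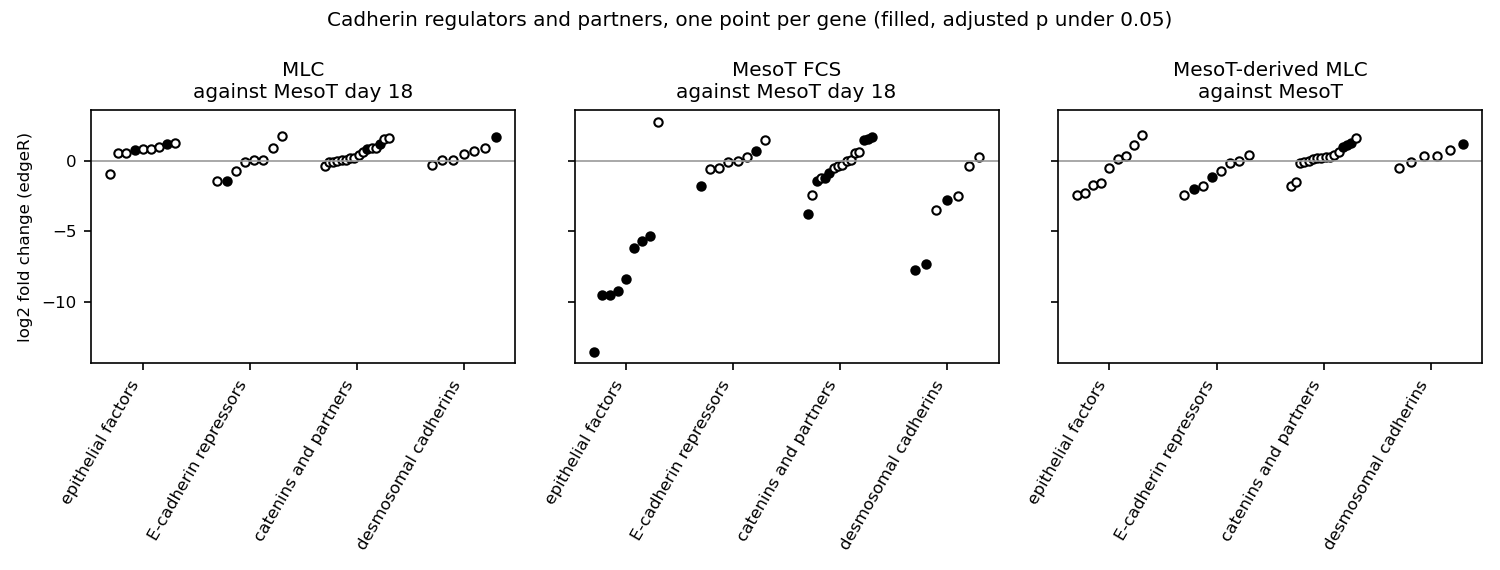
Each point is 1 gene of a list, by its edgeR log2 fold change in 3 comparisons, filled where the adjusted p was under 0.05. In MesoT FCS 8 of the 9 epithelial factors lie at or below -5.31, while the 8 repressors of CDH1 spread around 0. Genes without counts in MesoT FCS are drawn at their fitted values.

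Other cadherins, protocadherins and partners of CDH23 complete the family. Of 28 other cadherins tested (32 listed), 4 were higher and 4 lower in MLC, 2 higher and 8 lower in MesoT FCS, and 7 higher and 1 lower in MesoT-derived MLC (29 tested). The shares called over all genes were 24.6%, 27.3% and 9.94%. In MLC, FAT2 (3.28 ± 0.26, adjusted p = 8.82e-04), CDH24 (1.95 ± 0.17, adjusted p = 0.00125) and CDH20 (6.30 ± 1.00, adjusted p = 0.00833) were higher and CELSR2 (-1.27 ± 0.21, adjusted p = 0.00975), a planar polarity cadherin, was lower. CDH24 was at 74.6 and 79.3 CPM in MLC against 20.6 and 23.5 CPM in MesoT day 18, and at 44.0 and 37.6 CPM in MesoT-derived MLC against 20.2 to 24.4 CPM in MesoT (0.99 ± 0.18, adjusted p = 0.0312). CELSR1 was higher (2.03 ± 0.19) and FAT3 lower (-1.90 ± 0.18) in MesoT-derived MLC, each with adjusted p = 0.0122. None of the 13 list genes named by rule in MesoT-derived MLC kept its call in every alternative.

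CDH17, a cadherin of liver and intestine, was also higher in MesoT-derived MLC, at 3.63 and 18.5 CPM (3.99 ± 0.67, adjusted p = 0.0267), where the 6 gut epithelium markers, CDH17 among them, summed to 19.7 and 108 CPM. Of 10 delta protocadherins tested, 6 were lower and none higher in MesoT FCS, where 14.4% of all genes were called lower, PCDH17 among them (-4.63 ± 0.33, adjusted p = 0.00229). PCDH10 was lower in MLC (-3.11 ± 0.67, adjusted p = 0.0232) and in MesoT-derived MLC (-3.80 ± 0.61, adjusted p = 0.0240). None of the 7 partners of CDH23 was called in MLC, where CDH23 was highest and 24.6% of all genes were called. PCDH15, which pairs with CDH23 in the tip link, was at 0.693 and 1.10 CPM in MLC and was lower in MesoT-derived MLC (-3.12 ± 0.31, adjusted p = 0.0123), where CDH23 was higher. In MesoT FCS, where CDH23 was lowest, 1 of the 7 partners was higher and 2 were lower than in MesoT day 18. PCDH15 had no counts in MesoT FCS, at least 41.1-fold below MesoT day 18 by 3 counts over the group. In MLC against MesoT FCS, 5 of the 7 were higher and 1 lower, where 48.9% of all genes were called. Of 9 genes for cadherin processing and turnover, 2 were higher in MesoT FCS (HAX1, 1.27 ± 0.21, adjusted p = 0.0116, and MMP3 at 2.04 and 31.3 CPM, adjusted p = 0.0369), where 27.3% of all genes were called, and none was called in MLC or MesoT-derived MLC.

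The genes whose pattern was most like each cadherin were ranked by Pearson's r of log2 CPM over the 7 one-library libraries, among about 1543 expressed and variable genes. The r over the 6 libraries of the table is given beside it. The 7 libraries include both MesoT FCS libraries, and r was not computed without them. CDH1 was most like CLDN6 (0.995, but -0.17 in the table), GREB1L (0.995 and 0.454) and CGN (0.994 and 0.460). CDH3 was most like CGNL1 (0.998 and 0.637), MBP (0.993 and 0.823) and EFNA1 (0.993, but -0.14 in the table). CGN and CGNL1 encode cingulin and its paralogue, and CLDN6 a claudin, all of tight junctions.

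CDH2 was most like ITGA11 (0.991 and 0.423), TGM2 (0.989 and 0.333) and MYO1E (0.987 and 0.918), and CDH6 most like EIF6 (0.993 and 0.558), MYC (0.984 and 0.964) and POLR2L (0.983 and 0.818). CDH13 was most like STMN2 (0.982, but -0.36 in the table), FRMD6 (0.977 and 0.901) and DKK1 (0.976, but -0.68). CDH23 was most like DNAJC6 (0.987 and 0.503), PLXNA2 (0.985, but -0.28) and RHPN2 (0.981 and 0.991). CDH11, the least variable, had no near match, with PAPPA (0.843 and 0.450), PHLDA3 (0.821 and 0.774) and ITGA1 (0.814 and 0.597) first.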

How the data were processed

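Poly-A RNA of 11 human samples in 6 groups was used. The authors deposited raw counts, 1 value for each Ensembl gene. The submitters' processing notes name featureCounts and Subread 1.4.2, Bowtie2 2.2.9, TopHat2 2.0.13 and the build hg19. Neither annotation release nor strand setting is stated there. The mouse and chromatin samples were not analysed here.

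Totals ran from 21148477 to 70679258 counts. IDs with no symbol took 0.834% to 1.52% of counts and stayed in library sizes and tests. Each set of counts (7 one-library files, 6 table columns) was filtered with filterByExpr, scaled by TMM and fitted with edgeR 4.0.16 in R 4.3.3 over all its groups, with 3 residual degrees of freedom. Benjamini-Hochberg adjustment ran over 23049 and 22316 genes. Standard errors are derived from the F statistic. CPM are counts scaled to 1e6 by library total. Intervals (95%) and the floor of 3 counts over a group cover counting error only. The scripts were tested on simulated data. DESeq2 1.42.0, limma voom 3.58.1, library totals only, no filter, other reference groups and leaving out each library were tried. Figures used matplotlib 3.10.9.

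The cadherins, gene lists, tests and naming rule were chosen with earlier results of these data known. The rule names all 8 cadherins, the 3 genes most like each of 7 of them, and up to 4 called genes per list by smallest p. The core catenins, SNAI1, VSIR, and the repressors and markers given as context were named after their values were seen. Day 18 counts differed between the sets: of 22110 genes, 12519 (56.6%) lay within 0.5 log2 in both replicates. The planned levels per transcript length were not run.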

Additional observations from a re-analysis of the deposited data

Results flagged for a closer look

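CDH6 lay on opposite sides of MesoT day 18 in the libraries of the 2 kinds of MLC. Its log2 fold change against MesoT day 18 was -0.43 in MLC, where both libraries (7.06 and 4.67 CPM) lay below both MesoT day 18 libraries. It was 2.09 in MesoT-derived MLC, where both libraries (22.7 and 59.8 CPM) lay above them. The difference was not tested, since the 2 comparisons stand in sets counted apart. Neither value alone passed the edgeR threshold (adjusted p = 0.305 and 0.0769).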

How the results depend on the processing

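Of the 25 cadherin calls, the direction held in all 325 alternative fits and the call in 302; the 23 lost calls are given in the report. In the 39 cases not called, 48 of 491 fits turned the sign and 22 passed the threshold. The cause of these changes was not tested. Of the list genes named by rule, 14 of 21 in MesoT FCS, 3 of 12 in MLC, none of 13 in MesoT-derived MLC and none of 15 in smooth muscle kept their call in every alternative. Cadherins at a few counts are limited by depth.

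With the table's day 18 counts, genes called were 9237 for MLC, 12757 for MesoT FCS and 7935 for smooth muscle against MesoT day 18, with 4 and 3 cadherins called for MLC and smooth muscle and CDH23 at -0.61 in smooth muscle. With only the 2 groups fitted, counts were 3253 for MesoT FCS and 0 for smooth muscle against MesoT day 18, 0 genes and 0 cadherins for smooth muscle against MesoT FCS, 14132 genes and 5 cadherins against MLC, and CDH11 gave 0.056 in MLC against MesoT FCS. DESeq2 called 4925 and 6412 genes for smooth muscle against MesoT day 18 and MesoT FCS, 4604 for MesoT-derived MLC, 2 cadherins for smooth muscle against MesoT day 18 (1 with limma voom, 1 with no filter), and gave CDH11 0.013 in MLC against MesoT FCS. Against day 18 only, MesoT-derived MLC had 380 genes and 1 cadherin called. Against day 22 only it had 612 and 1, with CDH2 at 0.13 and CDH11 at 0.29.

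Without filter, CDH11 was 0.016 in MLC against MesoT FCS and CDH6 0.0034 in smooth muscle against MesoT day 18, where limma voom gave 0.013; limma voom gave CDH4 0.011 in smooth muscle against MLC. Library totals alone shifted the median of all genes by -0.51 in MesoT FCS, -0.14 in MLC and -0.39 in smooth muscle against MesoT day 18, 0.35 in MLC against MesoT FCS, 0.12 and -0.23 in smooth muscle against MesoT FCS and MLC, and -0.16 in MesoT-derived MLC. The share of calls that were higher moved from 47.5% to 19.2%, from 31.8% to 19.9%, from 58.7% to 32.9% and from 46.1% to 59.0% in the first 4. The signs that turned were CDH11 in MLC against MesoT FCS (0.33), CDH3 in smooth muscle against MesoT day 18 (-0.023), CDH11 in smooth muscle against MLC (-0.14), CDH1 in MesoT-derived MLC (-1.50e-04) and CDH4 at day 22 (0.021).

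Deviations of same-numbered replicates correlated at 0.067, 0.073 and 0.011 in the 1-library set. In the table they correlated at 0.557 between day 18 and day 22, but at -0.0077 and -0.064 between these and MesoT-derived MLC, so the numbers were not taken to pair all groups. With a replicate block the genes called were 4652 for MLC and 5601 for MesoT FCS against MesoT day 18, 10407 for MLC against MesoT FCS, 2800 for MesoT-derived MLC, 0 for day 22, and 527, 3123 and 5981 for smooth muscle against MesoT day 18, MesoT FCS and MLC. The block turned CDH11 (0.014) in MLC against MesoT FCS, CDH11 (-0.076) in smooth muscle against MesoT FCS, CDH4 (0.018) and CDH11 (-0.091) against MLC, and CDH2 (0.035) and CDH11 (0.026) in MesoT-derived MLC.

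Leaving out 1 library at a time, genes called ranged from 1714 to 6601 (MLC) and from 2294 to 7845 (MesoT FCS) against MesoT day 18, from 4962 to 13125 in MLC against MesoT FCS, from 7 to 4292, 1027 to 6524 and 2505 to 10457 for smooth muscle against MesoT day 18, MesoT FCS and MLC, and from 0 to 2995 in MesoT-derived MLC. The lowest counts came without an MLC library in the 1-library set, and in MesoT-derived MLC without MesoT day 22 replicate 1 or MesoT-derived MLC replicate 2. Cadherins called ranged from 1 to 3 in MLC, 0 to 1 in smooth muscle against MesoT day 18 and 0 to 2 in MesoT-derived MLC. CDH11 ranged from -0.81 to 0.31 in MLC and from -0.77 to 0.22 in MesoT FCS against MesoT day 18, from -0.33 to 0.21 in MLC against MesoT FCS, from -0.70 to 0.30, -0.14 to 0.30 and -0.14 to 0.39 in smooth muscle against MesoT day 18, MesoT FCS and MLC, and from -0.36 to 0.24 in MesoT-derived MLC. In smooth muscle, CDH2 ranged from -0.029 to 1.70 and CDH6 from -0.20 to 0.20 against MesoT day 18, CDH13 from -1.17 to 0.63 against MesoT FCS and CDH4 from -0.14 to 0.14 against MLC. CDH2 ranged from -0.63 to 0.34 in MesoT-derived MLC. At day 22, CDH2 ranged from -1.46 to 0.42, CDH3 from -0.12 to 0.73, CDH4 from -0.62 to 0.30, CDH13 from -1.03 to 0.77 and CDH23 from -0.29 to 0.025. The share of CDH11 was 31.4% or 42.2% in single MLC libraries and 25.0% or 44.7% at day 22. Leaving out smooth muscle, chosen after seeing the data, moved no count of genes by over 1.5 times.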
